A study of Mus musculus with 20 samples.

Results

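ISL1 peaks were set against chromatin acetylated at lysine 27 of histone H3 (H3K27ac) in embryonic inner ear ganglia, using the 4 ISL1 libraries and H3K27ac replicates 2 and 3, which are 6 of the 20 samples of the series. The 4 ISL1 lists held 95719 peaks (ISL1_26 replicate 1), 80293, 24573 and 41668 peaks (ISL1_70 replicates 1, 2 and 3), and the H3K27ac lists held 106628 and 168144. An ISL1 peak was counted as on H3K27ac when it overlapped, by at least 1 bp, a merged region with a peak in both H3K27ac lists. There were 49011 such regions of 218200 merged H3K27ac regions, and they covered 68.1 Mb, or 2.53% of the bases of chromosomes 1 to 19, X and Y. An ISL1 region was called replicated when merged peaks came from at least 2 of the 4 libraries, which held for 20413 regions.

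All libraries were made by CUT&Tag, in which an antibody brings a transposase to a chromatin protein or histone mark so that nearby DNA is cut out and sequenced. Nuclei came from dissected C57BL/6J ganglia labelled CVG, the usual abbreviation for the cochleovestibular ganglion, of E11.5 embryos, with no transgene, mutation or treatment given in the labels. The labels do not explain the numbers in ISL1_26 (n = 1) and ISL1_70 (n = 3), and both carry the ISL1 antibody label, so the 4 were used as replicates of 1 target. Whether replicates came from separate embryos is not stated, so the spread between libraries may be technical, and sequencing depth is unknown because the files are peak lists.

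ISL1 is a LIM-homeodomain transcription factor expressed in sensory neurons, including those of the auditory and vestibular ganglia, and homeodomains commonly read DNA with a TAAT core. H3K27ac is deposited by acetyltransferases at active promoters and active distal enhancers, so it marks the part of the genome from which genes are being transcribed. In neural development, enhancers far from genes carry much of the cell type specificity, whereas promoter acetylation is shared more widely between cell types. The series title names the interplay of ISL1 and POU4F1, a POU-homeodomain factor of the same neurons.

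Acetylated gene ends were counted in gene lists of several cell types. The lists were chosen with earlier results of these data known, so the counts are no independent check of the tissue label. A gene was counted as having an acetylated end when an H3K27ac region of both lists lay within 1 kb of either annotated end, which held for 9870 of 21887 protein-coding genes (45.1%). The share was 24 of 32 for inner ear neuron transcription factors and 16 of 23 for neurotrophin and survival signalling genes. Axon guidance and adhesion genes had 25 of 32, and neuronal cytoskeleton, synapse and excitability genes 31 of 37. The share was 4 of 19 for endothelium and blood, 5 of 22 for mesenchyme, 4 of 16 for muscle and heart and 2 of 16 for gut and liver. Otic epithelium and hair cell genes had 14 of 27, Schwann cell and neural crest genes 6 of 15 and housekeeping genes 18 of 22, as high as the neuronal lists. The part of these other cell types in the overlaps below was not tested.

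Promoter sequences are printed first, as examples of acetylated promoters with ISL1 summits of several libraries and of ISL1-free acetylated promoters. Each is the 250 bases before an annotated start, 5′ to 3′ on the gene's strand, from RefSeq on build GRCm38.p6, with every TAAT on either strand in capitals. The genes were chosen after their values were seen. The promoters of Ska2 (chr11:87109011-87109260, plus strand), a spindle and kinetochore component, and Hnrnpl (chr7:28810640-28810889, plus strand), a splicing factor, are acetylated promoters with an ISL1 summit of all 4 libraries. The promoter of Rxrg (chr1:167598112-167598361, plus strand), a retinoid X receptor, had summits of 3 libraries. The promoters of Isl1 itself (chr13:116309689-116309938, minus strand) and of Dcx (chrX:143933220-143933469, minus strand), which encodes the microtubule protein doublecortin of young neurons, were acetylated and had no ISL1 peak of any library.
Ska2: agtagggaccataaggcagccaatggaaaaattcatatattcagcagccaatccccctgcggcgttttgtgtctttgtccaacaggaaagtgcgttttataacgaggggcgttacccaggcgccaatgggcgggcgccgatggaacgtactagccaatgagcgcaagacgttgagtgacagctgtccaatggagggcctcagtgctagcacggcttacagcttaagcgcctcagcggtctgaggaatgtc
Hnrnpl: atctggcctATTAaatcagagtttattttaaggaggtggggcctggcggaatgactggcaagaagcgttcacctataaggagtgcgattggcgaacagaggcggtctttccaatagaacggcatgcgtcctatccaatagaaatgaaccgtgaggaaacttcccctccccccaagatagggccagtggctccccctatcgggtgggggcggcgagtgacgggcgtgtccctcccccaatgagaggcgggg
Rxrg: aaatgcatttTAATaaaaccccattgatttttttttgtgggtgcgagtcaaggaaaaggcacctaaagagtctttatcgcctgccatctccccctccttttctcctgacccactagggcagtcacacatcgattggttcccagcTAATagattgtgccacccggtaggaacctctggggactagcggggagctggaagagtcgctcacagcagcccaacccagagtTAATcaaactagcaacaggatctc
Isl1: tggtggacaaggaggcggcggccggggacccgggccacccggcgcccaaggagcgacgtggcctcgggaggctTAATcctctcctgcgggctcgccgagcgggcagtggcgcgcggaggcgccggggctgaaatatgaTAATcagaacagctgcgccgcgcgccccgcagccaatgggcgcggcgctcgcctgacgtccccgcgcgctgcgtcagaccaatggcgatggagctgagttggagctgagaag
Dcx: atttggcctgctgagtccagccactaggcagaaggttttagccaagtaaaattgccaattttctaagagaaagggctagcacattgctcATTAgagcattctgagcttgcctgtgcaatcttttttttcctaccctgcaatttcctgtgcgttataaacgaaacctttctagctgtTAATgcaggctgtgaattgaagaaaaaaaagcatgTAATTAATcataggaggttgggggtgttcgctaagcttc

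Among the windows with ISL1 summits, that of Ska2 holds no TAAT, that of Hnrnpl 1 and that of Rxrg 3. The ISL1-free windows of Isl1 and Dcx hold 2 and 5. Over 21263 promoters of 17492 genes (the promoter table used here has no chromosome 18), TAAT on either strand lay in 49.4% of the 250-base windows. It lay in 34.9% of the 8877 acetylated ones, 35.8% of the 4456 acetylated ones without an ISL1 peak, 34.9% of the 1717 with an ISL1 summit and 36.3% of the 234 with summits of at least 2 libraries. At at least 3 libraries the count was 14 of 23 promoters. Acetylated promoters were also richer in G and C, at a mean of 62.0% of bases against 55.5% over all promoters. The letters CCAAT, the core bound by the general promoter factor NF-Y, lay on either strand in 35.4% of all promoters, in 31.9% of acetylated promoters without an ISL1 peak and in 41.5% of those with summits of at least 2 libraries. The letters GGGCGG, an Sp1 type GC box, lay in 42.6%, 60.4% and 71.4% of the same sets. With summits of at least 3 libraries the counts were 12 of 23 promoters for CCAAT and 14 of 23 for GGGCGG. These shares are descriptions of letters in a window and were not tested.

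ISL1 summits fell within promoters (250 bases before to 50 after the start) more often where the promoter was acetylated, in each of the 4 libraries. ISL1_26 replicate 1 had a summit in 8.40% of acetylated promoters and 2.71% of the 12386 others. The pairs of shares were 8.43% and 2.32%, 2.08% and 0.937%, and 3.35% and 0.888% in ISL1_70 replicates 1, 2 and 3. The 2 longest lists had the higher shares.

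Over all peaks, the share on H3K27ac was 18.3%, 19.4%, 20.2% and 16.9% in ISL1_26 replicate 1 and ISL1_70 replicates 1, 2 and 3, a mean of 18.7% ± 1.40 (SD, n = 4). With the ISL1 summit inside the region in place of any overlap it was 16.4%. A further 5.35% of peaks met only an H3K27ac region private to replicate 2 and 6.88% only one private to replicate 3, while 68.8% met no H3K27ac peak of either list. Over whole lists the 4 ISL1 libraries were thus close to each other, although the lists differ severalfold in length. Over the 20000 best peaks of each list they spread from 18.02% to 39.9%. For comparison, the 2 POU4F1 libraries had 16.5% and 7.17% of their peaks on the same regions. Both lay below every ISL1 library. The ISL1 mean was higher by 6.88 percentage points, with an exact two-sided permutation p of 0.0667, the smallest that 4 against 2 libraries can give, and an adjusted p of 0.156 over 7 such comparisons. POU4F1 replicate 2 made much of this difference, which was 2.23 points without it and 11.53 points without POU4F1 replicate 1.

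Acetylation was concentrated in the best-ranked ISL1 peaks. Peaks were ranked within each list by the authors' q-value and cut into deciles. In the best decile 53.0%, 57.3%, 52.6% and 32.6% of peaks lay on H3K27ac (mean 48.9% ± 11.1, SD, n = 4), and in the last decile 8.63%, 9.90%, 9.65% and 15.1%. The first 3 libraries form a tight group in the best decile, and ISL1_70 replicate 3 lies below them there and above them in the last. Among the best 1% of peaks the shares were 77.3%, 79.2%, 84.1% and 68.0%. Among the best 0.1% they were 84.2%, 88.8%, 87.5% and 70.7%, and a mean of 94.6% met an H3K27ac peak of at least 1 list.

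The fall was steep at the top of the lists and shallow afterwards. The mean share was 23.7% in the second decile, 15.4% in the fifth and 10.8% in the tenth. The best decile exceeded the last by 38.1 ± 13.9 points (SD, n = 4; range 17.4 to 47.4) in 4 of 4 libraries. The exact two-sided sign-flip permutation test gave p = 0.125 (adjusted p = 0.156 over 20 tests), and 0.125 is the smallest p that 4 libraries can give, so no such test here can pass 0.05. From the second to the last decile the difference was 12.9 ± 9.92 points and was positive in 3 of 4 libraries (exact permutation p = 0.25, adjusted p = 0.294). ISL1_70 replicate 3 was the exception, with 13.7% in its second decile, 18.6% in its ninth and 15.1% in its last. Peak width differed between the deciles, with wider best-decile peaks in the first 2 libraries and narrower ones in the others: the best decile had median widths of 692, 666, 492.5 and 423 bp and the last 542, 552, 542 and 525.5 bp. The part of width in the overlap was not tested.

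**Figure D1:**
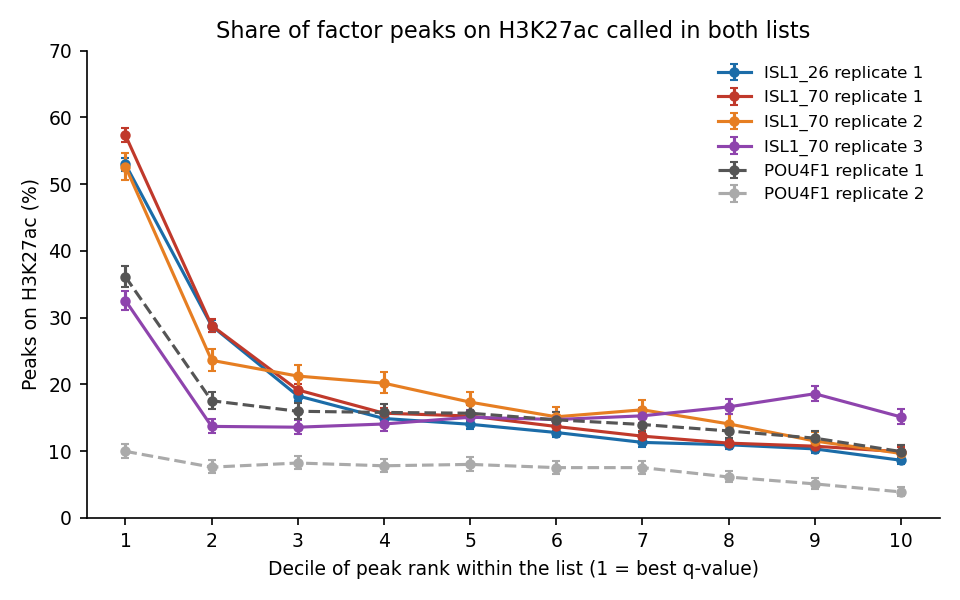
Share of peaks on H3K27ac (y axis, percent) by decile of peak rank within each list (x axis, 1 = best q-value) for 4 ISL1 libraries (solid lines) and 2 POU4F1 libraries (dashed lines), with Wilson 95% intervals that cover counting error only. ISL1_26 replicate 1 and ISL1_70 replicates 1 and 2 start between 52.6% and 57.3% and fall steeply, ISL1_70 replicate 3 starts at 32.6%, drops to 13.7% in the second decile and is at 18.6% in the ninth, and POU4F1 replicate 2 stays under 10%.

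Peaks near gene ends were on H3K27ac more often than peaks far from gene ends. Distance was taken from the ISL1 summit to the nearest annotated end of a protein-coding gene. Under 1 kb the share was 49.5%, 54.5%, 45.6% and 47.6% in the 4 libraries (mean 49.3% ± 3.83, SD, n = 4). It was 20.2% ± 1.69 at 1 to 10 kb, 19.1% ± 1.30 at 10 to 50 kb and 12.8% ± 1.45 beyond 50 kb. The under 1 kb share exceeded the over 50 kb share by 36.6 ± 4.77 points in 4 of 4 libraries (exact sign-flip permutation p = 0.125, adjusted p = 0.156). The difference was 16.7 points (4 of 4 libraries) when distance was taken to the gene body, so that summits inside genes counted as under 1 kb, and 46.7 points with distance to the nearest gene start. The 2 middle bins did not separate: 1 to 10 kb exceeded 10 to 50 kb by 1.13 ± 1.72 points, in 3 of 4 libraries. Within each bin, summits inside a gene body were on H3K27ac more often than summits outside, at means of 52.5% against 44.1% under 1 kb and 19.0% against 9.36% beyond 50 kb.

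Few ISL1 peaks lay under 1 kb from a gene end, however, so most acetylated ISL1 peaks lay farther from gene ends. Such peaks need not lie outside genes. Of all summits beyond 50 kb, 36.8%, 35.9%, 34.6% and 33.5% lay inside a gene body in the 4 libraries. The 4 bins held 6.90%, 20.2%, 30.4% and 42.5% of all ISL1 peaks, from near to far. They held 18.2%, 21.8%, 31.0% and 29.0% of those on H3K27ac.

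H3K27ac itself thins out away from gene ends, so the share was set beside the share of bases that the regions cover. H3K27ac of both lists covered 14.5% of bases under 1 kb, 3.71% at 1 to 10 kb, 2.94% at 10 to 50 kb and 1.19% beyond 50 kb. The share of ISL1 summits on H3K27ac divided by the covered share was 3.09, 3.49, 2.87 and 2.98 under 1 kb (mean 3.11 ± 0.269, SD, n = 4). Its means were 4.71 ± 0.415 and 5.67 ± 0.512 in the middle bins. Beyond 50 kb it was 8.85, 8.80, 11.2 and 8.54 (mean 9.36 ± 1.27). Relative to covered bases, the order of the bins was thus the reverse of the order of the shares, and the near and far bins did not overlap. The largest ratio possible is set by the covered share, so bins with few covered bases can reach higher values. Bases that cannot be mapped were not taken out of the chromosome spans. On the log2 scale the ratio was higher beyond 50 kb than under 1 kb by 1.59 ± 0.27 in 4 of 4 libraries (exact sign-flip permutation p = 0.125, adjusted p = 0.156). The rise was not particular to ISL1. POU4F1 replicate 1 had ratios of 3.02, 4.36, 4.95 and 7.27 from near to far, whereas POU4F1 replicate 2 had 2.51, 1.98, 1.96 and 2.02.

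**Figure D2:**
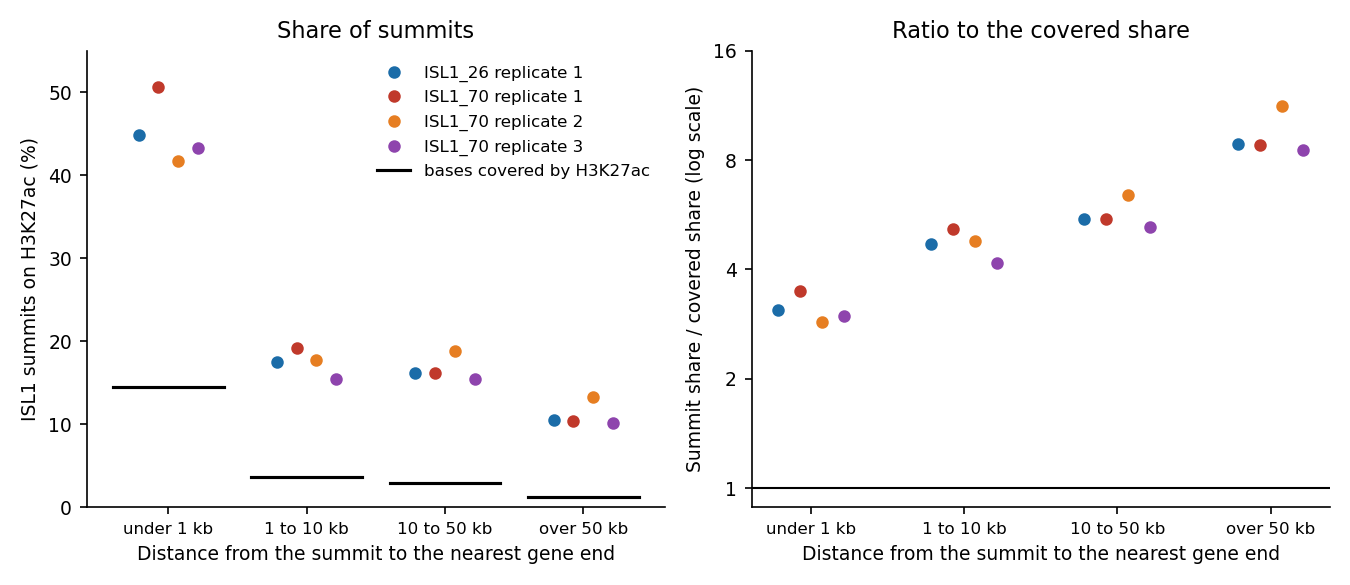
Left, share of ISL1 summits on H3K27ac (percent) in 4 bins of distance to the nearest gene end, a point per ISL1 library, with black lines for the share of bases in that bin covered by H3K27ac. Right, their ratio on a log axis (the line at 1 marks equal shares): shares fall with distance, from a mean of 45.1% to 11.1%, while ratios rise from 3.11 to 9.36.

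The same ratio was computed for the Polycomb mark H3K27me3, from regions of both replicate 2 and replicate 3 of that mark, since any called mark can lie under factor peaks. ISL1 peaks lay on H3K27me3 in 3.69%, 3.70%, 8.30% and 3.44% of cases. The summit ratio over all distances was 3.58 ± 1.86 for H3K27me3 and 6.51 ± 0.565 for H3K27ac (SD, n = 4). The log2 ratio was higher for H3K27ac by 0.97 ± 0.54 in 4 of 4 libraries (range 0.17 to 1.31; exact sign-flip permutation p = 0.125, adjusted p = 0.156). ISL1_70 replicate 2 gave the smallest difference. The ISL1 summit ratio for H3K27me3 also rose with distance, with means of 1.96, 2.78, 3.10 and 4.05 from near to far.

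Shares differed by rank within each distance bin. In the best decile the mean share on H3K27ac was 68.1% ± 8.47 under 1 kb, 49.0% ± 12.6 at 1 to 10 kb, 51.0% ± 10.2 at 10 to 50 kb and 42.1% ± 10.8 beyond 50 kb (SD, n = 4). In the last decile it was 40.7% ± 4.93, 14.1% ± 3.52, 10.5% ± 3.35 and 6.08% ± 1.75. The best-decile share beyond 50 kb was above the last-decile share under 1 kb in ISL1_26 replicate 1 (45.3% and 33.8%) and ISL1_70 replicates 1 and 2 (47.9% and 40.9%, 49.1% and 43.0%). In ISL1_70 replicate 3 the order was the other way (26.1% and 45.1%).

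ISL1 peaks on H3K27ac were found again in other ISL1 libraries far more often than peaks with no H3K27ac. In ISL1_26 replicate 1, 47.5% of its 17512 peaks on H3K27ac overlapped a peak of at least 1 other ISL1 list, against 8.51% of its 65020 peaks that met no H3K27ac peak of either list. The pairs were 50.3% and 9.26%, 68.2% and 12.6%, and 62.8% and 10.7% in ISL1_70 replicates 1, 2 and 3. The lowest share on H3K27ac (47.5%) lay above the highest share off it (12.6%). The difference was 46.9 ± 8.15 points (SD, n = 4, 4 of 4 libraries, exact sign-flip permutation p = 0.125, adjusted p = 0.156). Overlap with all 3 other libraries was 14.5% on H3K27ac and 0.546% off it.

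Rank also moved with acetylation, so the values are given by decile, which leaves differences of rank within a decile. Within the best decile 79.0% ± 6.30 of peaks on H3K27ac were found again against 26.2% ± 7.39 of those off it, and within the last decile 43.8% ± 14.7 against 8.78% ± 1.88. Beyond 50 kb the values were 64.7% ± 11.1 and 9.89% ± 1.58, and under 1 kb 54.3% ± 8.94 and 15.1% ± 2.41. The part of rank, peak width and list length in the difference was not tested.

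**Figure D3:**
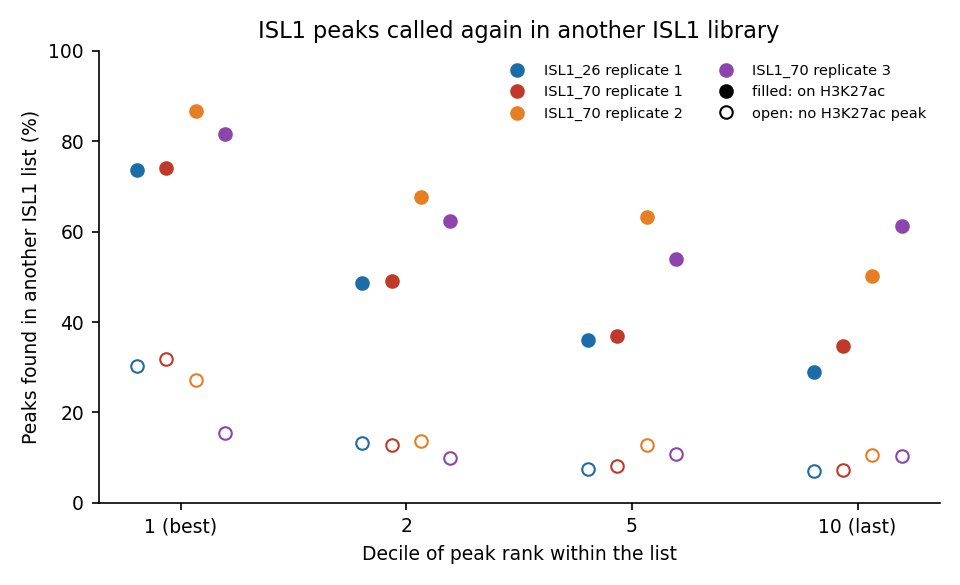
Share of ISL1 peaks that overlap a peak of another ISL1 list (y axis, percent) in 4 rank deciles (x axis), for peaks on H3K27ac (filled) and peaks with no H3K27ac peak in either list (open), a colour per library. Filled points lie above the open points of the same decile for each library, at means of 79.0% and 26.2% in the best decile and 43.8% and 8.78% in the last.

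Seen from the acetylated side, 9337 of 49011 H3K27ac regions (19.1%, Wilson 95% interval 18.7 to 19.4%) held a replicated ISL1 region. The interval covers counting error only. Single libraries placed a peak in 32.4%, 29.0%, 9.64% and 13.7% of the regions (mean 21.2% ± 11.2, SD, n = 4), which is also the order of the lists by length. No ISL1 peak of any library lay in 23872 regions (48.7%). Peaks of 1, 2, 3 and 4 libraries lay in 14244, 6705, 2870 and 1320 regions, so 2.69% of the regions held all 4. The count of regions depends on the 2 longest lists: the share was 9.26% without ISL1_26 replicate 1 and 10.2% without ISL1_70 replicate 1. With a single H3K27ac list it was 7.08% over the regions of replicate 3 and 11.4% over those of replicate 2.

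Regions with more ISL1 libraries were wider and more often held POU4F1. Median width was 900 bp with no ISL1 library, 1196 bp with 1, 1558 bp with 2, 1889.5 bp with 3 and 2384 bp with 4. A POU4F1 replicate 1 peak lay in 6.09%, 10.1%, 18.7%, 26.8% and 38.4% of these sets in the same order, and a POU4F1 replicate 2 peak in 3.12%, 4.30%, 6.06%, 7.28% and 7.12%. The part of width in this was not tested.

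ISL1 also went with the width of the region. Replicated ISL1 lay in 6.94% of the narrowest decile (median width 487 bp) and in 47.0% of the widest (3177 bp). Per library, the widest decile exceeded the narrowest by 38.5 ± 13.9 points (4 of 4 libraries; exact sign-flip permutation p = 0.125, adjusted p = 0.156). Per kilobase the trend was not seen. Regions with ISL1 numbered 0.146 per kb of acetylated sequence in the narrowest decile, 0.127 in the widest, and between 0.127 and 0.150 in all 10. A region counts once here however many ISL1 regions it holds, which can lower the value of wide regions. The value is therefore not a density of ISL1 peaks.

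The rank of the region's H3K27ac peaks behaved differently. Regions were put in deciles by the mean percentile of their best H3K27ac peak in the 2 lists. Replicated ISL1 lay in 46.3% of the strongest decile and 4.65% of the weakest, a difference of 36.4 ± 15.3 points per library (4 of 4; exact sign-flip permutation p = 0.125, adjusted p = 0.156). Per kilobase the values were 0.170 and 0.0641, so here the count of regions with ISL1 per kb fell too.

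By distance, regions at both extremes held ISL1 most often: 22.1% of 8253 regions under 1 kb, 15.7% of 11357 at 1 to 10 kb, 17.2% of 16461 at 10 to 50 kb and 22.4% of 12940 beyond 50 kb. Per library, the share under 1 kb minus that beyond 50 kb had no common direction. ISL1_70 replicate 1 had 39.9% and 29.6%, a difference of 10.2 points, whereas the other 3 libraries were between -1.44 and -0.27 points (mean of 4, 1.88 ± 5.60; exact sign-flip permutation p = 1). Without ISL1_70 replicate 1 the mean was -0.910. The sign depended on the regions and the distance used. It was positive in 4 of 4 libraries over the regions of H3K27ac replicate 3 alone (9.08 points), over those of replicate 2 alone (5.69) and with distance to the nearest gene start (4.68), and negative in 4 of 4 with distance to the gene body (-4.75). Regions within 1 kb of a gene end were split by the promoter table, on the chromosomes it covers. ISL1 lay in 23.4% of 5704 regions within 1 kb of a start in that table and in 18.1% of the 2352 others. The others can include starts that the promoter table lacks, since it does not hold all genes. Regions held by all 4 libraries became more frequent with distance, from 1.54% under 1 kb to 2.08%, 2.65% and 4.02% beyond 50 kb.

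Among regions of like acetylation, distal ones, meaning those far from a gene end whether inside or outside a gene, held ISL1 more often. In the strongest decile of H3K27ac rank, replicated ISL1 lay in 35.4% of 2065 regions under 1 kb, 47.8% of 1089 at 1 to 10 kb, 53.8% of 1106 at 10 to 50 kb and 66.4% of 642 beyond 50 kb. The under 1 kb and over 50 kb shares were 49.3% and 75.4% in ISL1_26 replicate 1, 55.7% and 74.8% in ISL1_70 replicate 1, 14.9% and 37.9% in replicate 2 and 20.5% and 46.0% in replicate 3. The distal share was higher in 4 of 4 libraries, by 23.4 ± 3.18 points (SD; exact sign-flip permutation p = 0.125, adjusted p = 0.156). Averaged over all 10 deciles of H3K27ac rank the difference was 6.37 ± 3.69 points, again in 4 of 4 libraries. Distal regions of the strongest decile were also wider, with medians of 2511.5 bp and 1822 bp, and held 0.218 and 0.172 regions with ISL1 per kb. Averaged within width deciles in place of rank deciles, under 1 kb minus over 50 kb was -2.43 points and negative in 3 of 4 libraries. POU4F1 replicate 1 had 17.7% and 34.6% in the same 2 bins of the strongest decile, and POU4F1 replicate 2 had 10.3% and 7.79%.

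**Figure D4:**
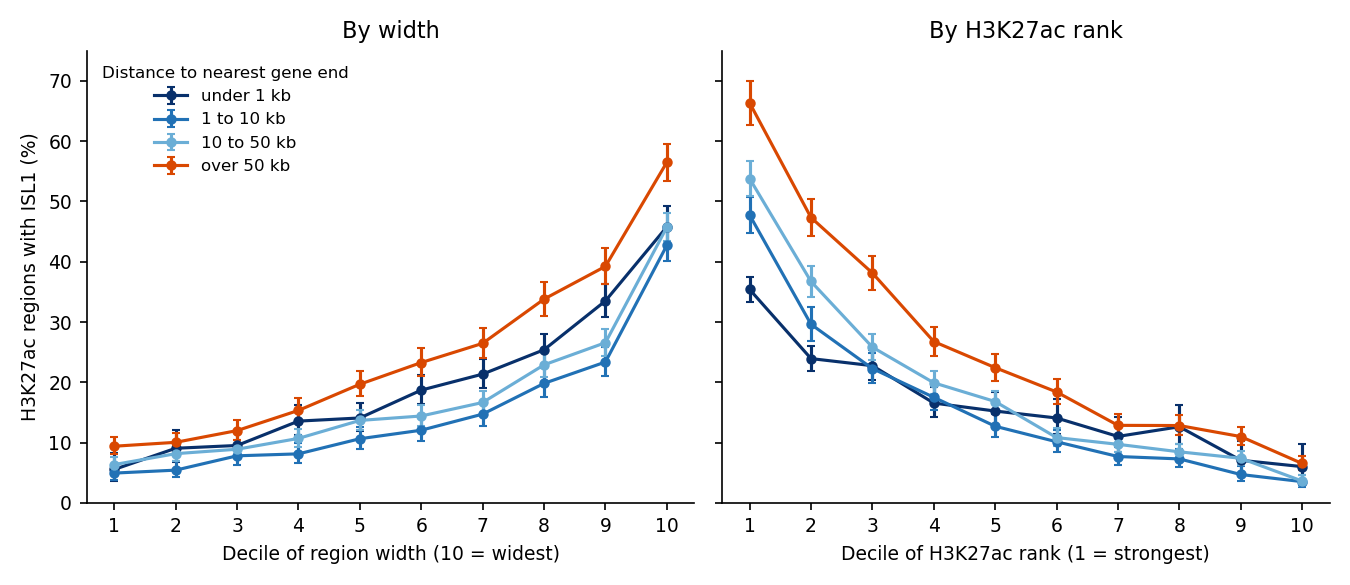
Share of H3K27ac regions with a replicated ISL1 region (y axis, percent) by decile of region width (left, 10 = widest) and of H3K27ac rank (right, 1 = strongest), a line per distance bin, with Wilson 95% intervals for counting error. In the strongest decile the bins are in order of distance, from 35.4% under 1 kb to 66.4% beyond 50 kb; in the widest decile the over 50 kb bin is highest at 56.5%.

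Within acetylated regions, ISL1 summits lay toward the middle. The median distance of a summit from the nearer edge was 30.4% ± 0.290 of the region's width (SD, n = 4). The innermost of 5 equal zones held 26.4% ± 0.216 of summits and the outermost 10.8% ± 0.444, where even spacing would give 20%. The difference was 15.5 ± 0.435 points in 4 of 4 libraries (exact sign-flip permutation p = 0.125, adjusted p = 0.156). The outermost zone held 7.31% of best-decile summits and 13.7% of last-decile ones.

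The acetylated regions with the best-ranked ISL1 peaks of all 4 libraries were taken in each distance bin, beginning beyond 50 kb. Each is named by its nearest gene end, which need not be the gene it acts on, and by how far down its list the best ISL1 peak ranked in each library. The leading one, 75.4 kb from Pirt, a regulator of ion channels in sensory neurons (chr11:66835751-66837259, build mm10), had best peaks in the top 0.0355%, 0.00374%, 0.0122% and 0.0144% of the 4 lists. A region 77.9 kb from Elavl4, which encodes the neuronal RNA-binding protein HuD (chr4:110125021-110126660), had best peaks in the top 0.00627%, 0.00623%, 0.0244% and 0.0936%. Regions 92.9 kb from Unc5b, a netrin receptor (chr10:60920873-60928113), and 106.8 kb from Pcbd1 (chr10:60981094-60983906) lie on the same stretch of chromosome 10. The last of the 5 lies 295.5 kb from Adamts16. A POU4F1 replicate 1 peak was present in 4 of these 5, all but the region near Adamts16.

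At 10 to 50 kb the leading regions include those nearest to Pip4k2b (chr11:97731954-97735097), Katnal2, Slc41a2 and Rbfox2, a neuronal splicing regulator. At 1 to 10 kb they lie nearest to Ttll7, a tubulin polyglutamylase of neurons, Chst15, Prkg1, Ccl26 and Tle3, a Groucho family corepressor. Under 1 kb they lie at 9430069I07Rik, Syt13, a synaptotagmin, Lmntd1, Prpsap1 and Hnrnpl. The mean percentile of the best peaks was 0.0593 for the leading region under 1 kb and 1.28 for the last of the 5, against 0.0165 and 0.0494 beyond 50 kb. The regions were picked by this same value, from 127 regions with all 4 libraries under 1 kb and 520 beyond 50 kb. A larger pool can give more extreme leading values, and the difference was not tested.

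Wide acetylated regions without any ISL1 peak exist as well. The 10 widest were between 5.96 and 8.46 kb, and all 10 lay inside genes. The widest lies in Ssbp3, a cofactor partner of LIM-domain binding proteins (chr4:107013618-107022078). The others lie nearest to Msi2, Iffo2, Wnt7b, Cep170b, the clock gene Per2, Elmo2, Tpcn2, Zfpm1 and Gm45915. A POU4F1 peak, of replicate 2, was present in the Per2 region alone. Of the widest decile of regions, 11.9% under 1 kb and 12.9% beyond 50 kb lacked ISL1 peaks, against 17.6% and 16.4% in the middle bins.

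Acetylated gene ends were then sorted by ISL1. Of the 9870 genes with an acetylated end, 2411 (24.4%, or 11% of all genes) had a replicated ISL1 region in an acetylated region at that end. A further 5098 had ISL1 peaks there that did not meet this rule, and 2361 (23.9%) had none. The total width of the acetylated regions at the gene ends had medians of 2044 bp with ISL1, 1539.5 bp with other peaks and 1295 bp without. ISL1 was counted only where a peak reached within 1 kb of an end, whereas this width takes whole acetylated regions, which can reach farther. In 5 equal groups of genes by that width, ISL1 was present for 10.5%, 17.0%, 23.7%, 32.1% and 38.9% of genes, from narrow to wide. The count of 2411 was 1006 without ISL1_26 replicate 1 and 983 without ISL1_70 replicate 1.

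The 4 neuronal lists held ISL1 at acetylated ends more often than genes at large. The counts were 12 of 24 for the transcription factors, 7 of 16 for neurotrophin and survival signalling, 11 of 25 for axon guidance and adhesion and 12 of 31 for cytoskeleton, synapse and excitability, against 24.4% of all acetylated genes. Housekeeping genes had 6 of 18 and otic epithelium and hair cell genes 4 of 14. None of 6 Schwann cell and neural crest genes, 4 endothelium and blood genes or 4 muscle and heart genes had it. Without ISL1_26 replicate 1 the neuronal counts were 7, 3, 3 and 6 in the same order, and without ISL1_70 replicate 1 they were 7, 4, 5 and 7. Over all genes the shares were then 10.2% and 9.96%. Median width of acetylated ends was 4145.5, 2830, 2355 and 2150 bp for the neuronal lists in the same order, against 1589 bp over all acetylated genes. Some lists without ISL1 had wide ends too, with medians of 3769.5 bp for Schwann cell and neural crest genes and 2970 bp for muscle and heart genes. Within the widest of the 5 groups, where 38.9% of all genes held ISL1, the transcription factors had 9 of 16, axon guidance 6 of 10, neurotrophin 4 of 9, cytoskeleton 4 of 11 and housekeeping 3 of 6. No test was made on the lists, which were chosen with results of these data known.

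**Figure D5:**
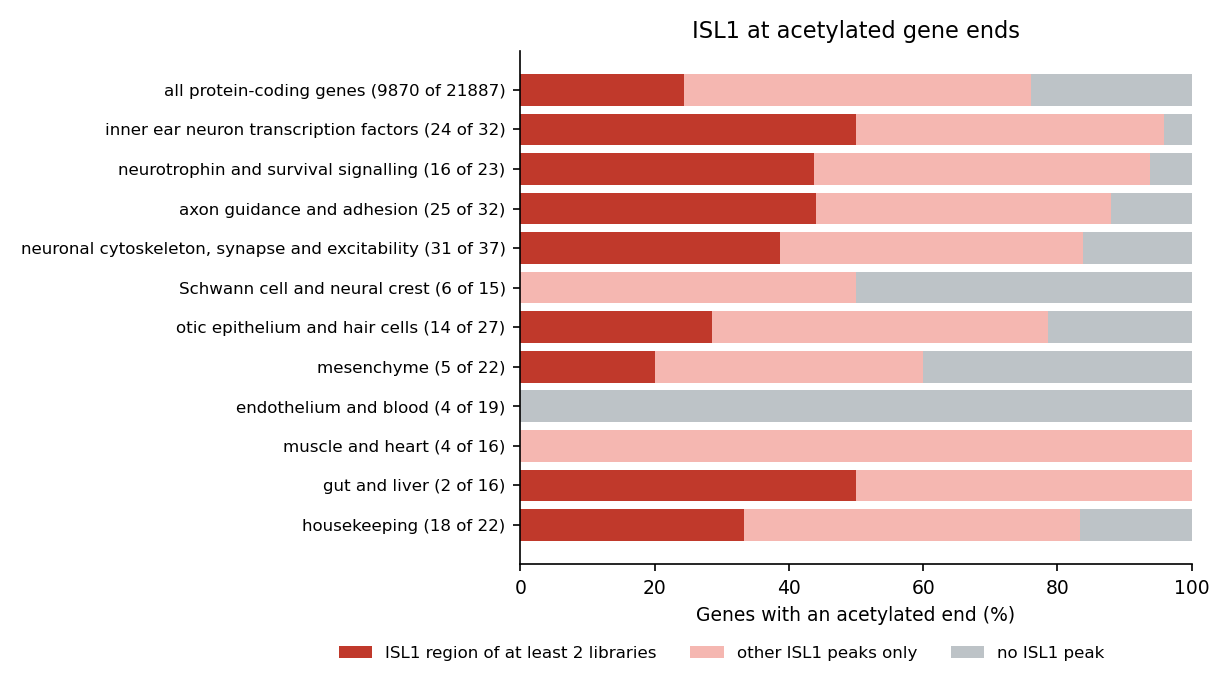
Genes with an acetylated end (x axis, percent of them) split by ISL1 at that end, for all protein-coding genes and 11 gene lists; brackets give the genes with an acetylated end of the genes matched. A replicated ISL1 region was present for 24.4% of all such genes, for 12 of 24 neuron transcription factors and for none of 6 Schwann cell and neural crest genes.

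Of the study's own genes, Pou4f1 and Isl1 differed. Pou4f1 had 4026 bp of acetylated regions at its ends with ISL1 peaks of 4 libraries, whose best ranks were at 0.380%, 0.148%, 98.2% and 58.3% of the lists, counted from the top. Within 10 kb of the gene 6 of 8 acetylated regions held replicated ISL1. Isl1 had 5499 bp of acetylated regions at its ends and 7 acetylated regions in all, and none held replicated ISL1. Of these 7 regions, 3 held no ISL1 peak of any library and the rest held peaks that were not replicated. At the Isl1 ends only 1 library had a peak on H3K27ac, ISL1_70 replicate 3, and its best peak there ranked at 89.7% of its list.

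Among other transcription factors with ISL1 at an acetylated end, Nhlh2, a basic helix-loop-helix factor of neurons, had peaks of 4 libraries and ISL1 in 4 of 6 acetylated regions. Eya2, a transcriptional coactivator of cranial placodes, had ISL1 in 8 of 32, and Myt1, a zinc finger factor of neural cells, in 2 of 5. Zeb1, a zinc finger repressor, had an acetylated end and no ISL1 peak. Over the whole list, ISL1 lay in 88 of 271 acetylated regions (32.5%), against 17.8% over all genes, each gene taken with 10 kb on both sides. Some other lists were above 17.8% too: gut and liver 3 of 8, otic epithelium and hair cells 17 of 67, housekeeping 10 of 44 and mesenchyme 6 of 29. Schwann cell and neural crest genes had 2 of 28, endothelium and blood 3 of 37 and muscle and heart 1 of 19.

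Of the receptor and survival genes with ISL1 at an acetylated end, Gfra1 and Gfra2, co-receptors for GDNF family ligands, had ISL1 in 6 of 28 and 2 of 9 acetylated regions. Shc1, an adaptor downstream of growth factor receptors, had it in 1 of 5. Bax, an effector of neuronal apoptosis, had acetylated regions of 3000 bp at its ends and no ISL1 peak within 1 kb of an end. For this list ISL1 lay in 32 of 160 acetylated regions (20.0%).

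Axon guidance genes with ISL1 at an acetylated end included the ligands Efnb2 (2 of 3 acetylated regions with ISL1) and Sema3f (1 of 7), the semaphorin receptor Plxna2 (3 of 6) and the adhesion molecule Nrcam (3 of 10). Ephb2, a receptor for ephrin ligands, had acetylated regions of 7058 bp at its ends and no ISL1 peak within 1 kb of an end. Yet 6 of its 43 acetylated regions held replicated ISL1. The adhesion molecule Dscam was alike, with none at its ends and 8 of 23 regions, whereas Dcx had none in 4. In these genes the ends alone do not show the state of the other acetylated regions.

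Among cytoskeletal genes, Mapt, which encodes the microtubule protein tau, had ISL1 peaks of 4 libraries at its ends, in the top 0.396%, 2.77%, 39.0% and 0.744% of the lists. Uchl1, an abundant neuronal deubiquitinase, had best peaks in the top 4.22%, 0.837%, 30.5% and 42.5%. The tubulin gene Tubb2b had peaks of 4 libraries and Stmn4, a stathmin, of 3. Elavl3, Map2 and Prph encode a neuronal RNA-binding protein, a dendritic microtubule protein and the intermediate filament peripherin. They had acetylated regions of 3128, 1801 and 1647 bp at their ends and no ISL1 peak within 1 kb of an end. Acetylated regions without any ISL1 peak numbered 3 of 7, 4 of 6 and 1 of 3 in these genes. Neuronal genes thus stood on both sides.

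Markers of other cell types stood on both sides as well. Erbb3, the neuregulin receptor of Schwann cell precursors, had acetylated regions of 6346 bp at its ends. Sox9 and Ednrb, neural crest genes, had 1401 and 1247 bp. These genes had no ISL1 peak within 1 kb of an end. Of the 3 acetylated regions of Erbb3, 1 was free of any ISL1 peak. In the otic list, Otof, Fgf3, Cldn6 and Fgf10 had ISL1 at an acetylated end, and Epcam, Krt8 and Myo7a had none. Foxc2 of the mesenchyme list had it, from ISL1_26 replicate 1 and ISL1_70 replicate 1. Postn and Col1a1 of mesenchyme, and Spi1, Pecam1 and Runx3 of endothelium and blood, had acetylated ends without an ISL1 peak. Of housekeeping genes, Eef1a1, Rpl13a, Rpl32 and Rps18 had ISL1 at an acetylated end. Actb, Rplp0 and Pgk1 had acetylated ends and no ISL1 peak within 1 kb of an end. The acetylated regions at the ends of Actb spanned 6190 bp. Its 2 acetylated regions each held an ISL1 peak of at least 1 library farther out, and 1 held replicated ISL1.

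The genes with most ISL1-bearing acetylated regions, taken with 10 kb on both sides, were long. Gse1 (352.9 kb) had 23 of 82, Tacc2 (214.7 kb) 19 of 48, Bach2 (347.7 kb), a transcriptional repressor, 18 of 51, the ion channel gene Asic2 (1088 kb) 17 of 34 and the RNA-binding protein gene Msi2 16 of 85. Tacc2 and Bach2 had acetylated ends without an ISL1 peak, and Asic2 had no acetylated end, so their ISL1 sites were all away from the ends. Genes with many acetylated regions and no replicated ISL1 in any were Anks1 (35 regions), Ssbp3 (31), Kdm4b (23), Arhgap26 (22) and Tpcn2 (22). Of these regions 23, 20, 16, 16 and 12, in that order, had no ISL1 peak of any library.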

How the data were processed

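Per the file headers (the peak names), the authors called peaks with MACS2 against a control, a list per library; which control and options were used is not given in the sources used here. The submitters' processing notes name Bowtie2, FastQC, SEACR and build mm10, without versions or roles. The deposited columns hold the fold enrichment (a ratio to local background), the −log10 of the p-value and q-value, and the summit offset. Each list used ends at a −log10 q of 1; these values served only to rank and filter peaks within a list. Depth is unknown, so a longer list may come from a deeper library.

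Genes were 21887 protein-coding genes of RefSeq GRCm38.p6. Ties in q-value were broken by p-value, fold and position. Merging, overlap, deciles, Wilson intervals and exact permutation tests (two-sided, Benjamini-Hochberg adjusted) were written in Python 3.11.15 with numpy 2.4.6, pandas 2.3.3 and statsmodels 0.14.6, and tested on simulated intervals. Named genes were Isl1, Pou4f1, the 5 best ISL1 regions per distance bin, the 10 widest regions without ISL1, up to 4 members with and 3 without ISL1 per list (261 genes in 11 lists, all matched), and the 5 genes with most sites of each kind; some of these genes are not reported here. The members and lists were chosen with earlier results of these data known. Alternatives covered thresholds, overlap rules, distances and leaving out each library. H3K27ac replicate 1 (8855 peaks) entered 1 alternative. H3K4me3, H3K27me3 replicate 1 and the 6 IgG libraries were not used here.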

Additional observations from a re-analysis of the deposited data

Results flagged for a closer look

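Within each set of 4 ISL1 libraries, a library was singled out when its gap to the nearest other, divided by the range, passed Dixon's 95% critical value. Chance alone does so for about 1 in 20 sets, and 5 of 26 sets passed. ISL1_70 replicate 2, the shortest list, had 8.30% of its peaks on H3K27me3, where the others had 3.44 to 3.70%, and 14.9% of its peaks beyond 50 kb on H3K27ac, where the others had 11.7 to 12.2%. ISL1_70 replicate 3 had 18.6% of its ninth-decile peaks on H3K27ac, against 10.3 to 11.52%, and a best decile that exceeded the last by 17.4 points, against 43.0 to 47.4. ISL1_70 replicate 1 had ISL1 in more H3K27ac regions under 1 kb than beyond 50 kb by 10.2 points, against -1.44 to -0.27 in the others.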

How the results depend on the processing

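Of 105 alternatives, 4 reversed the sign, 22 moved a share or count beyond a limit and 79 did neither, which for a difference says only that the sign was kept. The limit was the SD over libraries for the share of ISL1 peaks and the Wilson interval, for counting error only, for the share of regions. For the gene count it was a fixed fold. A test was carried by 68, and 0 of these had a permutation p under 0.05, which the design cannot reach. The share of ISL1 peaks on H3K27ac (18.7%) was 15.96% over bases covered in both lists, 16.4% by summit, 16.4% with 50% of the peak covered, 29.7% for the 20000 best peaks and 2.99% with H3K27ac in all 3 libraries; leaving out a library gave 18.2 to 24.4%. The share of H3K27ac regions with ISL1 (19.1%) was 16.9% over shared bases, 17.9% by summit, 51.3% with at least 1 ISL1 library, 7.50% with at least 3 and 31.5% with H3K27ac in all 3 libraries; leaving out a library gave 7.08 to 17.0%. Genes with ISL1 at an acetylated end (2411) numbered 6435 with at least 1 library and 671 with at least 3, and 983 to 2614 with a library left out. For regions under 1 kb minus beyond 50 kb (1.88 points), leave-outs gave -0.910 to 9.08, with -0.910 without ISL1_70 replicate 1, and the sign reversed with distance to the gene body (-4.75), within width deciles (-2.43) and within H3K27ac rank deciles (-6.37), the last 2 chosen after seeing the data. Apart from the alternatives' construction the causes were not tested. The best minus last decile, 1 kb minus 50 kb and widest minus narrowest differences of the report kept their sign in each alternative run (11, 13 and 9), over 34.9 to 45.5, 16.7 to 46.7 and 26.8 to 43.4 points; ISL1 minus POU4F1 ranged from 2.23 to 15.9. Replicate numbers are not stated to pair libraries: with the replicate number as a block, ISL1_70 exceeded POU4F1 by 7.96 points over 2 pairs (exact sign-flip permutation p = 0.5, the smallest possible).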
